A study of Mus musculus with 10 samples.

Results

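CXCR3, the chemokine receptor of activated T cells and NK cells, was described here together with its interferon-inducible ligands Cxcl9, Cxcl10 and Cxcl11 and with Dpp4, in tumors taken 6 h after an injection. The 5 genes were chosen by name, and each had exactly 1 probe with 1 gene symbol. They are among 19938 genes measured by such probes, of which 999 had several and are represented by the probe with the highest mean. Expression was measured on 10 whole-transcript arrays, 1 for each mouse: 5 tumors injected with CpG1826 (mice 50, 58, 183, 189 and 595) and 5 injected with PBS (mice 26, 29, 482, 592 and 661). All 10 were tumors of the mouse colon carcinoma line MC38, grown under the skin of C57BL/6 mice to about 40 mm2. The CpG1826 dose was 50 µg in 50 µL of PBS. CpG1826 is a short synthetic DNA that TLR9, an endosomal DNA sensor, recognises in the mouse. The labels give neither the age of the mice nor a separate protocol for the PBS tumors, for which the same volume and time were assumed.

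CXCR3 is a G protein-coupled receptor that guides type 1 helper T cells, cytotoxic T cells and NK cells towards the ligands CXCL9, CXCL10 and CXCL11. Macrophages, dendritic cells, endothelial cells and tumor cells make these ligands after exposure to interferon-γ, and CXCL10 also after type I interferon or NF-κB signals. DPP4 (CD26) is a membrane peptidase that trims the amino terminus of these chemokines, which weakens their action on CXCR3, and its cleavage of CXCL10 has been studied in mouse tumors. In the RefSeq gene table for the C57BL/6J assembly GRCm38.p6, the 3 ligand genes stand side by side on chromosome 5, Cxcr3 is on chromosome X and Dpp4 on chromosome 2. The same table lists Cxcl11 as a transcribed pseudogene, with a transcript and without a protein, while the other 4 genes are protein-coding. The Cxcl11 values below are therefore values of an RNA that this annotation gives no protein.

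The stretches before the start sites of both protein-coding ligands and of the receptor are shown because the ligands and the receptor differed in the direction of their change. They are RefSeq sequences of GRCm38.p6, each the 250 bases before the annotated start on the minus strand, at chr5:92328080-92328329 for Cxcl9, chr5:92348890-92349139 for Cxcl10 and chrX:101734148-101734397 for Cxcr3. Capitals mark matches to the interferon-stimulated response element core GAAANNGAAA, the interferon-γ-activated site TTCNNNGAA or the NF-κB consensus, searched on both strands. The NF-κB consensus was GGGRNWYYCC, where R is A or G, W is A or T, Y is C or T and N is any base. Near matches were not counted.
Cxcl9: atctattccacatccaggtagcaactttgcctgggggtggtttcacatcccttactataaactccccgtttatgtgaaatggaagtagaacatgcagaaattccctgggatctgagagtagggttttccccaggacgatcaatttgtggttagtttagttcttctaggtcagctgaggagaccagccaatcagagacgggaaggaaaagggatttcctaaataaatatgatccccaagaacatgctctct
Cxcl10: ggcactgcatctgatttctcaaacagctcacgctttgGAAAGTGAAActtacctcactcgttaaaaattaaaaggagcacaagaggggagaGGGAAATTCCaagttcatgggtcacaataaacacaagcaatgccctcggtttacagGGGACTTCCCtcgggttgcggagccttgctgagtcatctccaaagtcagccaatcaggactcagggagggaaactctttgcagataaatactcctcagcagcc
Cxcr3: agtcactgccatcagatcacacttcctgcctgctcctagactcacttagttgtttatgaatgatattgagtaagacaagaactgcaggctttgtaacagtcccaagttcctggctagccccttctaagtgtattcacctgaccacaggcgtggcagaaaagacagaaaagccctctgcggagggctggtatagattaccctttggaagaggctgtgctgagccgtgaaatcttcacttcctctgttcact
The Cxcl10 stretch holds 1 response element match, GAAAGTGAAA, from 213 to 204 bases before the start. It also holds 2 NF-κB matches, GGGAAATTCC from 159 to 150 and GGGACTTCCC from 103 to 94 bases before the start, and no matches overlap. The Cxcl9 and Cxcr3 stretches hold 0 full matches to the 3 motifs. The Dpp4 stretch (chr2:62412232-62412481, not printed) holds 1 response element match, from 52 to 43 bases before the start used. That start lies inside the annotated Dpp4 gene, which spans 62330073 to 62412315. The Dpp4 match therefore lies within the gene span and not upstream of it. Of 32817 windows of 250 bases in the table, 2.97% hold the response element core, 7.01% the interferon-γ-activated site and 3.9% the NF-κB consensus. The promoter table matched 4 of the 5 genes, all but Cxcl11. These are matches of letters only.

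Of the 3 ligands 2 rose in CpG1826 tumors, and the receptor fell. Cxcl10 and Cxcl11 rose 1.38-fold and 2.07-fold, Cxcr3 fell 1.63-fold, and Cxcl9 and Dpp4 did not pass the test. The test was limma over all 19938 genes with Benjamini-Hochberg adjustment and a threshold of 0.05. By that rule 4.66% of all genes passed, 3.56% higher and 1.1% lower in CpG1826 tumors, beside 2 higher and 1 lower of the 5 genes described here. The groups did not overlap for these 3 genes, nor for 6.78% of all genes. Values are on the log2 scale, so a difference of 1 is a doubling.

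**Figure D1:**
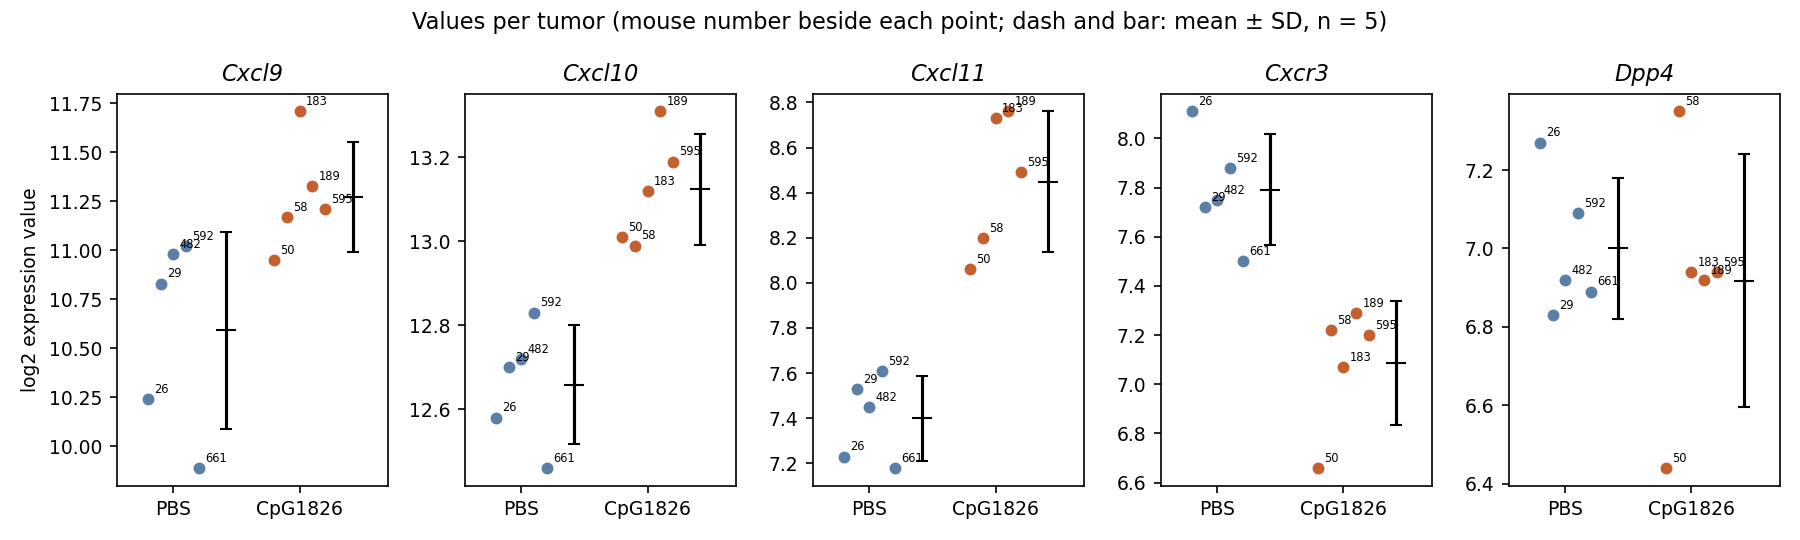
Log2 expression values of the 5 genes (vertical axis, a separate scale for each gene) in the 5 PBS and 5 CpG1826 tumors, with the mouse number beside each point and the mean ± SD beside each group. The groups are apart for Cxcl10, Cxcl11 and Cxcr3, and they overlap for Cxcl9 and Dpp4.

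Cxcl11, the ligand with the highest affinity for CXCR3 where it is made as a protein, had values of 7.23, 7.53, 7.45, 7.61 and 7.18 in PBS mice 26, 29, 482, 592 and 661. In CpG1826 mice 50, 58, 183, 189 and 595 it had values of 8.06, 8.20, 8.73, 8.76 and 8.49. Every CpG1826 tumor lay above every PBS tumor, a separation that 4.35% of all genes showed in this direction. The PBS mean was 7.40 ± 0.19 and the CpG1826 mean 8.45 ± 0.31 (SD, n = 5 in both groups), and the fitted log2 fold change was 1.05 ± 0.14 (SE; 95% confidence interval 0.75 to 1.34, limma adjusted p = 0.000427). This was the 112th largest rise among the 19938 genes.

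Cxcl10, also known as IP-10, had values of 12.58, 12.70, 12.72, 12.83 and 12.46 in the PBS mice, in the same order, and of 13.01, 12.99, 13.12, 13.31 and 13.19 in the CpG1826 mice. The groups did not overlap, although the step between the highest PBS tumor (mouse 592) and the lowest CpG1826 tumor (mouse 58) was small. The PBS mean was 12.66 ± 0.14 and the CpG1826 mean 13.12 ± 0.13 (SD, n = 5 in both groups), and the fitted log2 fold change was 0.46 ± 0.09 (SE; 0.28 to 0.65, limma adjusted p = 0.00596). Its values lay in the upper part of the table, whose highest value is 14.7.

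Cxcl9, also known as MIG and induced mainly by interferon-γ, had values of 10.24, 10.83, 10.98, 11.02 and 9.89 in the PBS mice and of 10.95, 11.17, 11.71, 11.33 and 11.21 in the CpG1826 mice. The groups overlapped through CpG1826 mouse 50 alone, which lay below PBS mice 482 and 592, while the other 4 CpG1826 tumors lay above all PBS tumors. PBS mice 26 and 661 were low and made the PBS spread wide (10.59 ± 0.50 against 11.27 ± 0.28, SD, n = 5 per group). The log2 fold change of 0.68 ± 0.21 (SE; 0.24 to 1.13) did not pass after adjustment over all genes (limma adjusted p = 0.0945, unadjusted p = 0.00573). Without PBS mouse 661 the estimate was 0.51 (limma adjusted p = 0.168). The exact permutation test of the gene by itself, two-sided and not adjusted over genes, gave p = 0.0238. The estimate for Cxcl9 was larger than that for Cxcl10, yet it carried more than double the standard error.

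Cxcr3 had values of 8.11, 7.72, 7.75, 7.88 and 7.50 in the PBS mice and of 6.66, 7.22, 7.07, 7.29 and 7.20 in the CpG1826 mice. Every CpG1826 tumor lay below every PBS tumor, as for 2.42% of all genes, and CpG1826 mouse 50 was the lowest. The PBS mean was 7.79 ± 0.22 and the CpG1826 mean 7.09 ± 0.25 (SD, n = 5 in both groups), and the fitted log2 fold change was -0.70 ± 0.13 (SE; -0.98 to -0.42, limma adjusted p = 0.00569). This was the 24th largest fall among the 19938 genes. Without CpG1826 mouse 50 the log2 fold change was -0.59 (limma adjusted p = 0.00781). In whole tumors, fewer CXCR3-bearing cells and less Cxcr3 RNA in each of them cannot be told apart.

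Dpp4 had values of 7.27, 6.83, 6.92, 7.09 and 6.89 in the PBS mice and of 6.44, 7.35, 6.94, 6.92 and 6.94 in the CpG1826 mice. The groups overlapped, and CpG1826 tumors held both the lowest value (mouse 50) and the highest (mouse 58). The means were 7.0 ± 0.18 and 6.92 ± 0.32 (SD, n = 5 in both groups), and the fitted log2 fold change was -0.08 ± 0.14 (SE; -0.38 to 0.22, limma adjusted p = 0.847). The interval leaves room for a fall of up to 1.3-fold or a rise of up to 1.16-fold. The sign turned without CpG1826 mouse 50 (0.04, limma adjusted p = 0.921).

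The changes of the 5 genes were then set against each other within each tumor, for all 10 pairs, by a two-sided exact permutation of the group labels over 10 arrays, with adjustment over the 10 pairs. Of these, 8 pairs passed. Ligand and receptor parted in all 3 pairs: the change of Cxcl11 exceeded that of Cxcr3 by 1.75, that of Cxcl9 by 1.39 and that of Cxcl10 by 1.17 on the log2 scale (exact permutation test, p = 0.00794 each, the smallest that 5 against 5 arrays can give, adjusted p = 0.0132). For Cxcl10 and Cxcl11 this p was fixed in advance. Every CpG1826 tumor lay above every PBS tumor for these ligands and below every PBS tumor for Cxcr3. Those pairs therefore restate the separations of the single genes and add no further evidence. In the PBS tumors the log2 difference of Cxcl10 minus Cxcr3 was 4.87 ± 0.22, and in the CpG1826 tumors it was 6.03 ± 0.21 (SD, n = 5 per group). Among the ligands, Cxcl11 changed by 0.58 more than Cxcl10 (exact permutation test, adjusted p = 0.0132). The mean level of Cxcl10 was at percentile 99.9 of all genes and that of Cxcl11 at percentile 64.6. Whether the Cxcl10 probe responded less near the top of the range was not tested. Cxcl9 differed from Cxcl10 by 0.22 (exact permutation test, adjusted p = 0.317) and from Cxcl11 by -0.36 (exact permutation test, adjusted p = 0.0705), and neither passed.

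Cxcr3 also parted from Dpp4, the other gene with a negative estimate. The change of Cxcr3 was 0.62 below that of Dpp4 (exact permutation test, adjusted p = 0.0132). Cxcl11 exceeded Dpp4 by 1.13 (exact permutation test, adjusted p = 0.0132), Cxcl9 by 0.76 and Cxcl10 by 0.55 (exact permutation test, adjusted p = 0.0397 for both). The last 2 calls were lost when any of 6 mice was left out (26 and 661 of the PBS group, and 50, 183, 189 and 595 of the CpG1826 group), with adjusted p from 0.0298 to 0.0992 for Cxcl9 and from 0.0113 to 0.0907 for Cxcl10 over the 10 exact permutation tests that leave out 1 mouse.

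Within the groups, the 3 ligands tended to be high in the same tumors. This covariation was measured on deviations from the own group mean over the 10 tumors, since the groups form separate clusters, and p came from all 14400 permutations of arrays within the groups, with adjustment over the 10 pairs. Cxcl10 and Cxcl11 had r = 0.848 (exact permutation, p = 0.00389, adjusted p = 0.0194) and rho = 0.794 (exact permutation, p = 0.011, adjusted p = 0.0373). Cxcl9 and Cxcl11 had r = 0.768 (exact permutation, p = 0.00139, adjusted p = 0.0139) and rho = 0.77 (exact permutation, p = 0.00361, adjusted p = 0.0361). Cxcl9 and Cxcl10 had r = 0.745 (exact permutation, p = 0.0233, adjusted p = 0.0583) and rho = 0.673 (exact permutation, p = 0.0551, adjusted p = 0.138), which did not pass. Without the 2 tumors farthest from the median of the first gene, r was 0.81, 0.733 and 0.72. PBS mouse 661 was lowest of its group for all 3 ligands, and CpG1826 mouse 50 for Cxcl9 and Cxcl11.

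No pair of the receptor with a ligand passed. Cxcr3 had r = 0.282 with Cxcl9 (exact permutation, p = 0.451, adjusted p = 0.645; rho = 0.00606, p = 1, adjusted p = 1) and r = 0.449 with Cxcl10 (exact permutation, p = 0.23, adjusted p = 0.459; rho = 0.321, p = 0.394, adjusted p = 0.788). With Cxcl11 it had r = 0.431 (exact permutation, p = 0.275, adjusted p = 0.459; rho = 0.285, p = 0.488, adjusted p = 0.814). Without the 2 farthest tumors these were 0.0251, 0.139 and 0.216. Single mice moved them widely: without PBS mouse 26 r was 0.576 with Cxcl9, 0.682 with Cxcl10 and 0.695 with Cxcl11 (exact permutation, adjusted p = 0.124, 0.103 and 0.103). Without PBS mouse 661 it was -0.0745, 0.239 and 0.326, and without CpG1826 mouse 50 it was 0.0833, 0.325 and 0.0109. Cxcr3 varied with Dpp4, at r = 0.815 (exact permutation, p = 0.0101, adjusted p = 0.0338) and rho = 0.806 (exact permutation, p = 0.0112, adjusted p = 0.0373), and of this pair Cxcr3 alone passed the test between the groups. Without CpG1826 mouse 50 and PBS mouse 661, r was 0.649. Dpp4 had r = 0.085 with Cxcl9, 0.00807 with Cxcl10 and 0.108 with Cxcl11 (exact permutation, p = 0.788, 0.983 and 0.842, adjusted p = 0.935, 0.983 and 0.935). By rho these were 0.115, 0.0303 and 0.103 (exact permutation, p = 0.755, 0.947 and 0.823, adjusted p = 1 each). Without the 2 farthest tumors r was -0.0309, -0.0977 and -0.131.

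**Figure D2:**
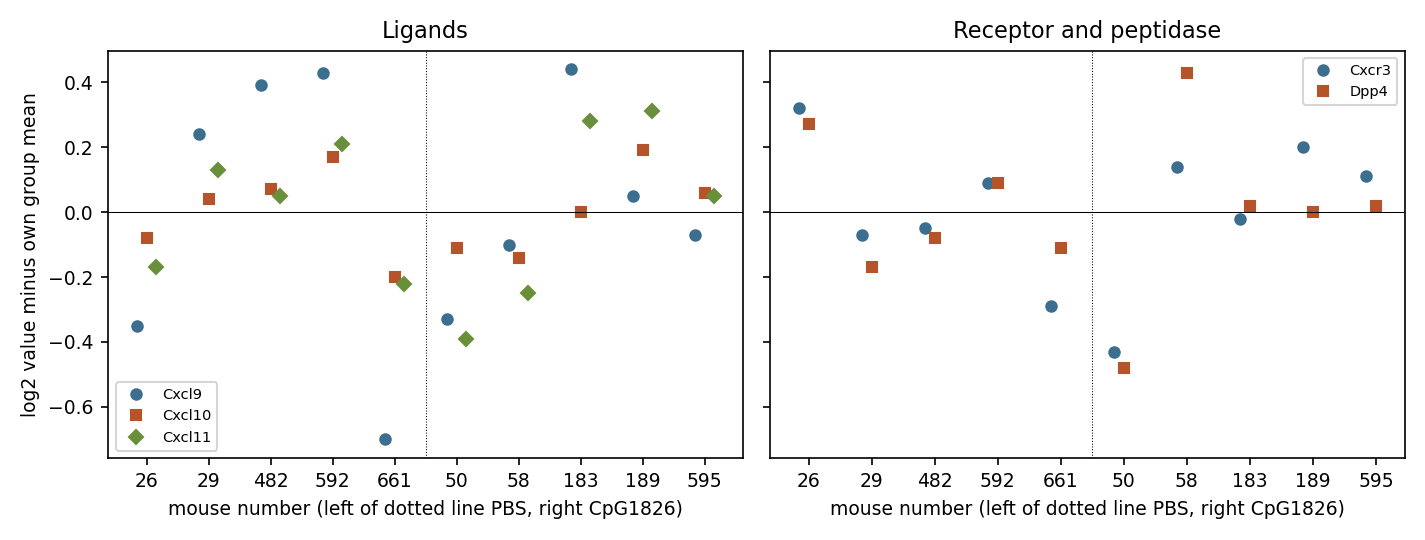
Deviation of each tumor's log2 value from the mean of its own group (vertical axis), by mouse (horizontal axis), for the 3 ligands on the left and for Cxcr3 and Dpp4 on the right. The ligands are low together in PBS mouse 661 (-0.70 for Cxcl9, -0.20 for Cxcl10 and -0.22 for Cxcl11), and Cxcr3 and Dpp4 are low together in CpG1826 mouse 50 (-0.43 and -0.48).

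These relations rest on few tumors. Of the 10 pairs 3 passed, and 0 passed without PBS mouse 592 (r = 0.835 for Cxcl10 with Cxcl11, 0.735 for Cxcl9 with Cxcl11 and 0.811 for Cxcr3 with Dpp4) or without CpG1826 mouse 50 (r = 0.86, 0.76 and 0.617). The pair of Cxcr3 and Dpp4 also lost its call without PBS mouse 26 or 482 or CpG1826 mouse 595 (r = 0.774, 0.814 and 0.823). Arrays share their normalization, so values of 1 array are not free of each other.

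The genes most like each member were ranked by the same r among the other 19937 genes, as a description without a test. Closest to Cxcl9 were Tcirg1 (0.964), Fyco1 (0.957), Eipr1 (0.954) and Bcl6, a transcriptional repressor of lymphocytes and macrophages (0.952). Closest to Cxcl10 were Xpnpep1 (0.953), Gbp4, an interferon-inducible guanylate-binding protein (0.94), Gm11696 (0.925) and Asxl2 (0.922). Cxcl11 was closest to Tas2r125 (0.942), Txn1, a thioredoxin (0.937), Plekhf2 (0.931) and Exoc2 (0.93). Cxcr3 was closest to Naa35 and Fbxo5 (0.975 each), Ddx60, an interferon-inducible helicase (0.972), and Stx16 (0.949), and Dpp4 to Mtx2 (0.97), Abcd3 (0.949), Ormdl1 (0.947) and Mir148b (0.945). The ligands were not each other's nearest genes: seen from Cxcl10, Cxcl11 ranked 30th and Cxcl9 183rd, and seen from Cxcl9, Cxcl11 ranked 359th and Cxcl10 483rd. Nor were Cxcr3 and Dpp4: seen from Cxcr3, Dpp4 ranked 304th, and seen from Dpp4, Cxcr3 ranked 239th. Of the 20 nearest genes only Tcirg1 (log2 fold change 0.27) and Bcl6 (0.70) differed between the groups (limma adjusted p = 0.0184 and 0.00238). The dimmest of the 20 were Tas2r125, Gm11696 and Mir148b, with mean levels at percentiles 7.47, 24.7 and 27.5 of all genes. Whether such dim probes reflect joint expression was not tested.

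The genes next to the ligand cluster did not pass the test. Art3, whose span in the RefSeq table covers Cxcl10 and Cxcl11, had means of 4.56 ± 0.09 and 4.86 ± 0.35 (SD, n = 5 per group; log2 fold change 0.30 ± 0.14 (SE), limma adjusted p = 0.317). Before Cxcl9, Sdad1 had a log2 fold change of 0.19, Naaa of -0.22 and Ppef2 of -0.10, and after Cxcl11, Nup54 had 0.19, Scarb2 -0.04 and Fam47e -0.10 (limma adjusted p from 0.2 to 0.873 over these 6 genes). Cxcl10 and Cxcl11 were thus the genes of this neighbourhood that passed.

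The genes upstream of the ligands were described as 3 lists, whose differences from each other were not tested, beside the 3.56% of all genes that were higher. Of 9 measured genes of interferon-γ, its receptor and its signal relay, 1 rose and 0 fell, with a median log2 fold change of 0.12 against -0.02 over all genes. Jak2, a kinase of the interferon-γ receptor, was 1.56-fold higher (95% confidence interval 1.35 to 1.81, limma adjusted p = 0.00151). Ifng itself ran from 5.74 to 6.52 in PBS and from 5.80 to 6.46 in CpG1826 tumors (log2 fold change -0.03 ± 0.15 (SE), limma adjusted p = 0.955), and Irf1, a transcription factor induced by interferon-γ, had 0.11 ± 0.09 (SE, limma adjusted p = 0.612). Ifngr2, a chain of the receptor, had 0.30 and did not pass (limma adjusted p = 0.0635). The number that rose was 2 without CpG1826 mouse 50.

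Of 10 measured genes of the type I interferon relay, 2 rose and 0 fell, with a median log2 fold change of 0.20. Usp18, an interferon-induced brake on the type I receptor, was 1.84-fold higher (1.52 to 2.23), and Stat2, a subunit of the factor ISGF3, 1.42-fold (1.2 to 1.67; limma adjusted p = 0.00097 and 0.0167). Ifnb1 (0.19), Ifnar1 (0.14), Irf9 (0.25) and Irf7 (0.36) did not pass. With genes below the median level left out, 4 of the 9 that remained passed. Of 9 measured NF-κB subunits and inhibitors, 8 rose and 0 fell, with a median of 0.45, and the subunits Relb (0.45) and Rel (0.31) were among them, while Rela (0.22) did not pass (limma adjusted p = 0.238). Nfkbia, the inhibitor IκBα, was 2.01-fold higher (1.8 to 2.24, limma adjusted p = 3.62e-06). Nfkbiz, Nfkbib and Bcl3, which are further IκB proteins, rose 1.91-fold, 1.59-fold and 1.54-fold. The NF-κB count was 5 when any of PBS mice 29, 482 and 661 or CpG1826 mice 50 and 595 was left out.

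**Figure D3:**
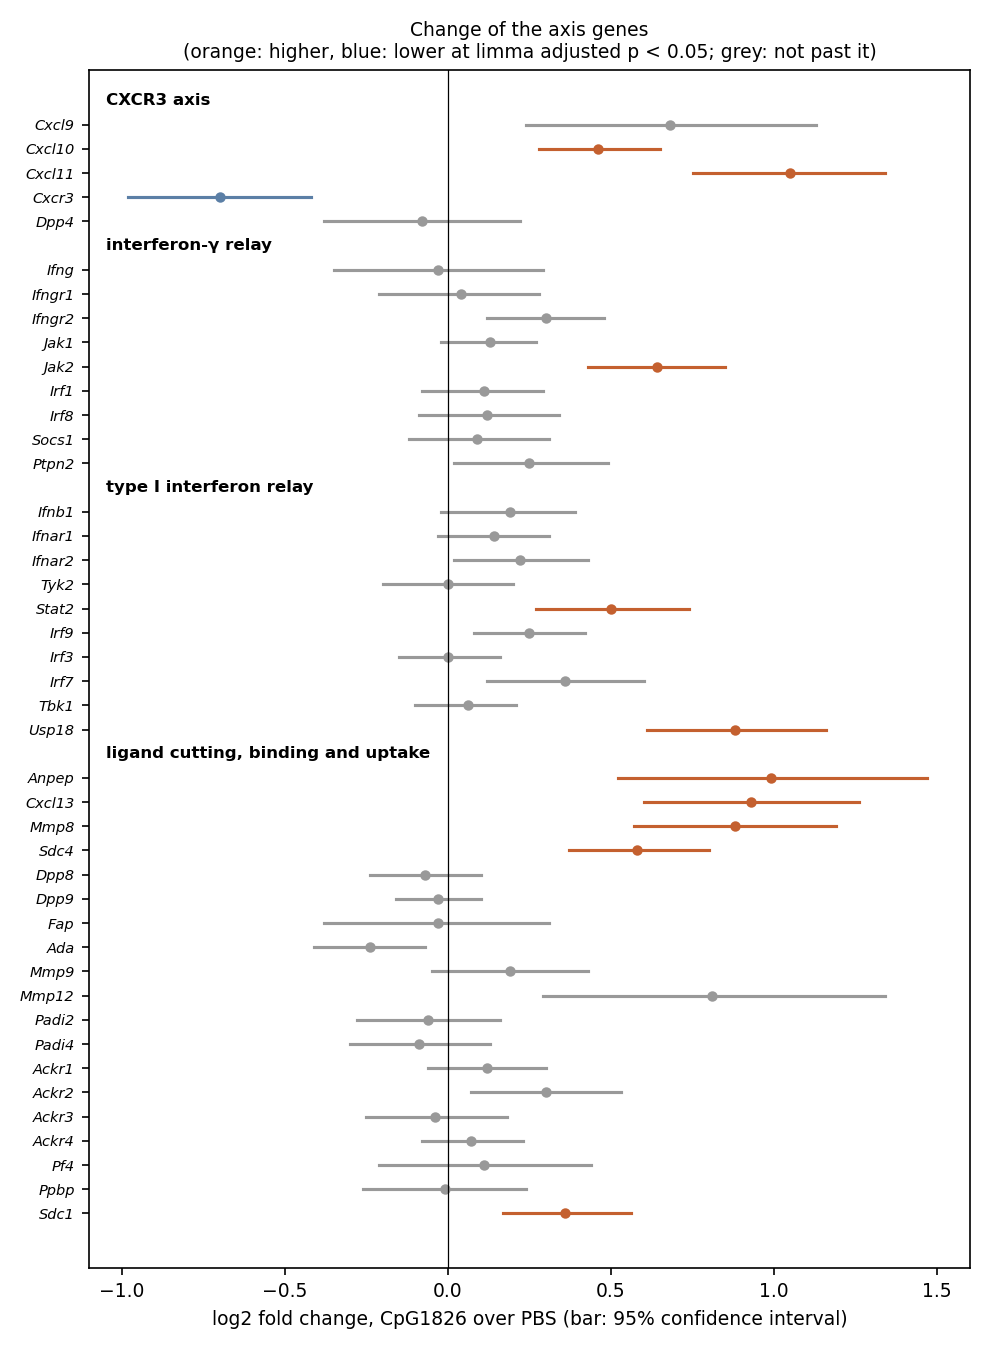
Log2 fold change of CpG1826 over PBS tumors (horizontal axis; points, with 95% confidence intervals of the limma fit as bars) for the 5 genes and for the interferon-γ, type I interferon and ligand-handling lists. Orange genes were higher and blue genes lower at a limma adjusted p under 0.05; Cxcr3 is the one gene in blue.

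Beside Dpp4, genes whose proteins cut, bind, scavenge or compete with these ligands were measured as a list. Of 19 genes, 5 rose and 0 fell, beside 3.56% of all genes higher and 1.1% lower. The median log2 fold change of the list was 0.11. Anpep, the aminopeptidase CD13, had values of 8.66, 9.03, 8.77, 8.73 and 7.79 in the PBS mice and of 9.17, 9.77, 10.16, 9.35 and 9.51 in the CpG1826 mice. Its groups did not overlap, and it was 1.99-fold higher (1.43 to 2.76, limma adjusted p = 0.0181). Mmp8, the neutrophil collagenase, was 1.84-fold higher (1.49 to 2.28), and Cxcl13, a B cell chemokine, 1.91-fold (1.51 to 2.4; limma adjusted p = 0.00226 and 0.00268). Both were dim, with mean levels at percentiles 16.5 and 32.1 of all genes, and 10 of the 19 list genes lay below the median gene. Mmp8 is also counted among the neutrophil markers that rose, given below. Sdc4 and Sdc1, heparan sulfate proteoglycans that bind chemokines, rose by 0.58 and 0.36 on the log2 scale.

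The peptidases related to DPP4 did not pass. Dpp8 and Dpp9, cytosolic relatives, had log2 fold changes of -0.07 and -0.03 and Fap, a fibroblast relative, of -0.03. Ada, the adenosine deaminase that binds DPP4, had -0.24 (limma adjusted p = 0.129), and Mmp9, a gelatinase that cleaves these ligands, had 0.19. Mmp12 had 0.81 ± 0.24 (SE) and did not pass (limma adjusted p = 0.0893). The atypical receptors Ackr1 (0.12), Ackr2 (0.30), Ackr3 (-0.04) and Ackr4 (0.07), and Pf4 (0.11), a platelet chemokine that can also bind CXCR3, did not pass either.

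Downstream of the receptor, 3 of 17 measured G protein, kinase and arrestin genes rose and 0 fell by limma (5 higher and 4 lower at an unadjusted p under 0.05), with a median log2 fold change of -0.02. Pik3r5, a regulatory subunit of the PI3-kinase that G proteins activate, was 2.07-fold higher (1.67 to 2.56), Rac2, a GTPase of leukocyte movement, 1.61-fold (1.3 to 1.99) and Rgs16, a brake on G protein signals, 1.42-fold (1.22 to 1.65; limma adjusted p = 0.000566, 0.0119 and 0.0107). Negative estimates that did not pass were those of Plcb2, a phospholipase (-0.35, limma adjusted p = 0.0577), Dock2, an activator of Rac (-0.34, 0.0843), the G protein subunit Gng2 (-0.22, 0.103) and the arrestin Arrb1 (-0.21, 0.158). Gnai2 (-0.02), the main inhibitory G protein of chemokine receptors, and Arrb2 (-0.05) did not pass either. Of all genes, 3.56% were higher by the same rule and 1.1% lower. For the relay genes the count was 5 without PBS mouse 661. These genes serve many receptors and many leukocytes.

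The fall of Cxcr3 was set against markers of lymphocytes, whose counts stand beside 3.56% of all genes higher and 1.1% lower. Of 13 T cell markers, 0 passed in either direction by limma (0 higher and 2 lower at an unadjusted p under 0.05), with a median log2 fold change of -0.11. Of 10 NK cell markers, 0 passed by limma (0 and 0 at an unadjusted p under 0.05), with a median of -0.13. Estimates were negative for 11 of the T cell and 8 of the NK cell markers, and positive for 2 in each list. Cd3g had -0.51 ± 0.25 and Cd8a -0.29 ± 0.18 (SE; limma adjusted p = 0.36 and 0.504). The mean log2 value of the T cell list was 6.59 to 7.10 in PBS and 6.52 to 7.01 in CpG1826 tumors, and that of the NK cell list 5.34 to 6.29 and 5.21 to 6.28. PBS mouse 661 and CpG1826 mouse 50 were the lowest of their groups in both lists.

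Of 17 measured genes of type 1 lymphocytes, the cells that carry CXCR3, 1 rose and 0 fell, beside 3.56% of all genes higher and 1.1% lower. The median log2 fold change of the list was 0.05. Gzmb, which encodes granzyme B, was 2.23-fold higher (1.65 to 3.01, limma adjusted p = 0.00406). Prf1, which encodes perforin, had 0.72 (limma adjusted p = 0.0578). Tbx21, the type 1 transcription factor that drives Cxcr3, had 0.15 ± 0.11 (SE, limma adjusted p = 0.584), and Cxcr6, a chemokine receptor of the same cells, had -0.09. None of the 3 passed. The count was 2 without CpG1826 mouse 50.

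Set against each list within each tumor, Cxcr3 was 0.82 ± 0.16 above the T cell mean in PBS and 0.27 ± 0.16 above it in CpG1826 tumors (SD, n = 5 per group). This is a difference of -0.55 on the log2 scale (exact permutation test, two-sided, p = 0.00794, adjusted p = 0.0119 over 3 lists), and the groups did not overlap (0.63 to 1.02 against 0.06 to 0.44). Against the NK cell mean the difference was -0.62 (exact permutation test, p = 0.0238, adjusted p = 0.0238), with groups that overlapped slightly. Against the type 1 lymphocyte mean it was -0.88 (exact permutation test, p = 0.00794, adjusted p = 0.0119). In that list 10 estimates were positive, among them Gzmb (1.15) and Gzma (0.59), and 7 were negative. The part of the granzyme genes in this difference was not tested. The 3 differences kept their sign and their side of the threshold without each mouse in turn (-0.60 to -0.49, -0.72 to -0.54 and -0.96 to -0.80). Cxcr3 by itself already separated the groups (log2 fold change -0.70), while the 3 list means changed by -0.16, -0.08 and 0.17. These tests therefore largely restate the fall of Cxcr3 and add little further evidence. They were also added after their values were seen. Mean level was below that of the median gene for 6 of 13 T cell, 8 of 10 NK cell and 7 of 17 type 1 lymphocyte genes. Dim probes can show less change, and their part in these differences was not tested.

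**Figure D4:**
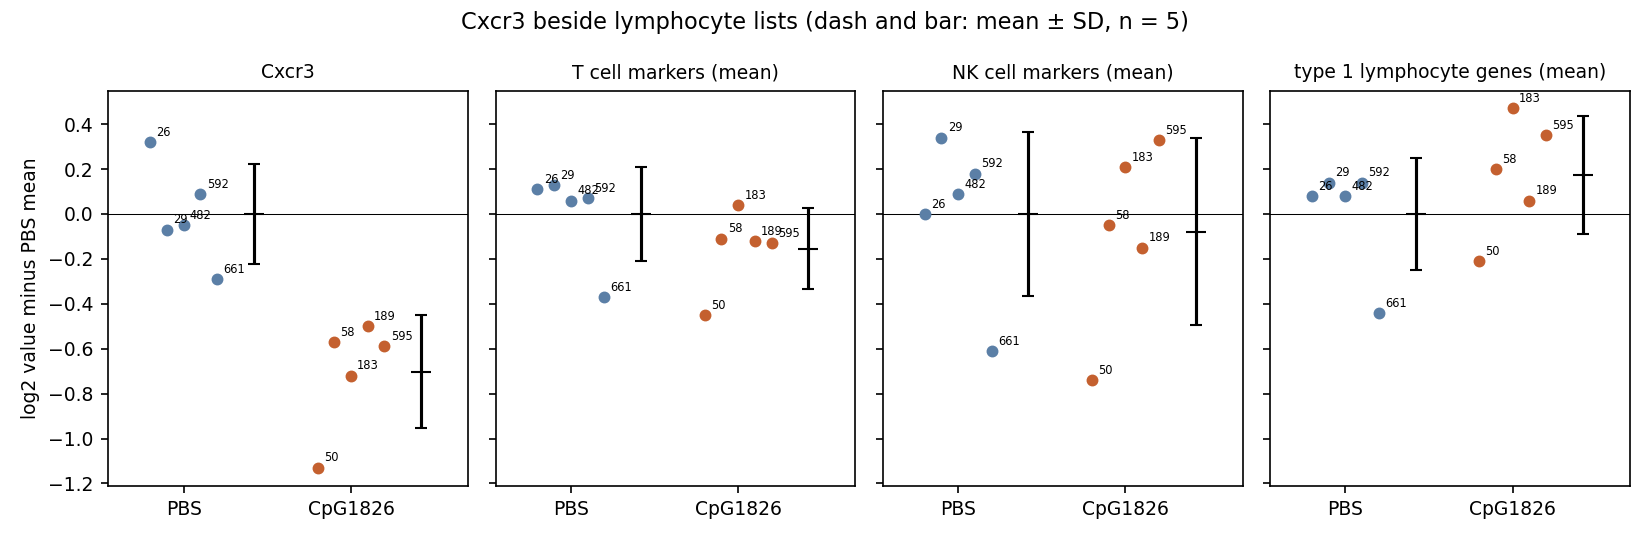
Log2 value minus the PBS mean (vertical axis) of Cxcr3 and of the mean of the T cell, NK cell and type 1 lymphocyte lists, for each tumor with its mouse number, and the mean ± SD of each group. Cxcr3 lies at -0.50 or lower in all 5 CpG1826 tumors, while the lists overlap between the groups.

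Markers of other cells moved with the groups, and their part in the changes of the 5 genes was not tested. The counts below stand beside 3.56% of all genes higher and 1.1% lower. Of 17 keratinocyte markers 13 rose, among them Krt5 (7.75-fold) and Krt1 (8.35-fold), and of 10 neutrophil markers 7 rose, among them S100a8 (4.37-fold) and Cxcr2 (3.11-fold), with 0 lower in both. Their list means were 5.44 to 5.98 and 5.43 to 5.56 in PBS against 6.88 to 7.51 and 6.14 to 6.65 in CpG1826 tumors. Of 13 macrophage markers 2 rose and 2 fell (Cd14 4.33-fold higher, Csf1r 1.37-fold lower), and 1 of 11 dendritic cell markers rose (Ccr7, 1.69-fold). Of 6 plasmacytoid dendritic cell markers 2 rose, Ly6d, which keratinocytes also make (2.88-fold), and Spib (1.78-fold), while Siglech had -0.04. By limma 0 of 8 B cell markers (1 lower at an unadjusted p under 0.05), 0 of 11 fibroblast markers (2 lower) and 0 of 12 ribosomal protein genes (0) passed, and 1 of 11 endothelial markers fell (Tek, 1.27-fold).

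Of 13 epithelial and colon markers 2 rose, beside 3.56% of all genes, namely Cdh1 (1.55-fold) and Epcam (1.25-fold). The colon and epithelial genes Krt18 (5.42 in PBS tumors), Cdx2 (5.58) and Vil1 (4.68) did not pass. Levels of single array probes do not show whether a gene is expressed, so the epithelial identity of MC38 was not settled by them. Within the groups, the deviations of the 5 genes were compared with those of 6 marker list means (T cell, NK cell, macrophage, dendritic cell, neutrophil and keratinocyte), 30 relations in all. None passed after adjustment (exact permutation, lowest adjusted p = 0.111). The 3 lowest unadjusted p belonged to Cxcr3 with the neutrophil list (r = -0.74, rho = -0.77, exact permutation p = 0.0041 and 0.00944, adjusted p = 0.111 and 0.283), Cxcl9 with the T cell list (r = 0.759, rho = 0.648, exact permutation p = 0.0084 and 0.0493, adjusted p = 0.111 and 0.35) and Cxcl9 with the NK cell list (r = 0.73, rho = 0.636, exact permutation p = 0.0111 and 0.0588, adjusted p = 0.111 and 0.35). Without the 2 farthest tumors r was -0.488, 0.465 and 0.528. Cxcr3 had r = 0.749 with the T cell list and 0.647 with the NK cell list (exact permutation, p = 0.0397 and 0.0737, adjusted p = 0.168 and 0.246). By rho these were 0.261 and 0.152, and without the 2 farthest tumors r turned to -0.331 and -0.584.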

How the data were processed

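The labels give 5 CpG1826 and 5 PBS tumors, each from its own mouse, and no batch. The deposited values are taken as log2, a base inferred from their range (2.03 to 14.7), and near-equal array medians (6.47 to 6.53) show that the authors had put the arrays on a common scale. R 2.7.1 and limma are named in the submitters' processing notes with no role, and the sources used here do not give background correction, summarization or build. Such scaling removes a shift common to nearly all genes. The arrays are whole-transcript arrays, per the labels' protocols.

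Of 35512 probes, 21789 had 1 symbol in the platform annotation, and the probe with the highest mean stood for each of 19938 genes. Groups were compared by limma 3.58.1 (R 4.3.3; lmFit, then eBayes) with Benjamini-Hochberg adjustment over all genes; the fit and the permutation tests were tested on simulated data. The number of arrays limits the precision. The groups share no mouse number, and samples were not paired.

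The members, the 18 gene lists and the tests were chosen with earlier results of these data known. Named are the 5 members, up to 4 called genes per list with the largest change (or the 2 with the highest level), Ifng, Irf1, Ifnb1, Ifnar1 and Tbx21, and the 4 genes most like each member. Other list genes, the neighbours, and the comparisons of members with marker lists were added after their values were seen. Alternatives tried were median centring, a further quantile normalization, 2 filters on level, another prior, array weights, the mean of probes, a threshold of 0.01, single-gene permutation, and leaving out each mouse.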

Additional observations from a re-analysis of the deposited data

Results flagged for a closer look

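In 22 of 182 groups of 5 tumors examined, 1 array lay far from the other 4 by Dixon's criterion, which chance alone meets in about 1 of 20 groups; none of the 5 member genes was among them. PBS mouse 661 was low for the mean of the T cell list (6.59, the next 7.03), the type 1 lymphocyte list (6.67, the next 7.19) and the macrophage list (9.38, the next 9.66). It was also low for Cd3g (7.86), Cd8a (7.76), Nkg7 (8.15), Gzma (6.21), Irf1 (10.82), Clec4d (7.27), Pik3r5 (7.46) and Nfkbiz (8.80). PBS mouse 26 was high for the dendritic cell list (6.31, the next 6.19), Ccr7 (7.51), Rps6 (13.37) and Abcd3 (9.02), and PBS mouse 482 for Rgs16 (9.03). CpG1826 mouse 50 was low for the type I interferon relay (8.72, the next 8.95), Naa35 (9.38) and Stx16 (8.35), and high for Rgs16 (9.65) and S100a9 (8.01). CpG1826 mouse 183 was high for Fcgr1 (11.18).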

How the results depend on the processing

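Cxcl10, Cxcl11 and Cxcr3 kept their direction and stayed past the threshold in all 18 alternatives, the limma fits and the single-gene exact permutation test (p = 0.00794 each) alike (log2 fold changes without 1 mouse of 0.41 to 0.51, 0.97 to 1.14 and -0.78 to -0.59). Cxcl9 passed in 1 of 18, the single-gene exact permutation test (0.68, p = 0.0238), which is not adjusted over genes; without 1 mouse it was 0.51 to 0.79. Dpp4 passed in 0 of 18, and its sign turned with array weights (0.01) and without CpG1826 mouse 50 (0.04; -0.19 to 0.04 without 1 mouse). Genes higher numbered 407 and genes lower 64 at an adjusted p under 0.01, against 710 and 220. Genes lower numbered 440 after a further quantile normalization, 338 with genes below the median level left out, and 121 to 209 without 1 mouse.

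The interferon-γ relay had 2 calls with median centring, either filter on level, another prior or array weights (1 to 2 without 1 mouse), and the type I relay 4 with genes below the median level left out. NF-κB genes numbered 5 to 7 without 1 mouse. The receptor relay had 6 calls after quantile normalization or with genes below the median level left out, 5 with another prior or array weights, and 3 to 5 without 1 mouse. Ligand-handling genes numbered 3 with genes below the median level left out, where 9 were tested. Type 1 lymphocyte genes numbered 2 after quantile normalization, median centring, either filter or array weights, and 1 to 2 without 1 mouse. Pairs of members passing for covariation numbered 0 to 4 without 1 mouse.

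Covariation near 0 changed sign. Cxcl10 with Dpp4 had r = -0.0542 after quantile normalization, -0.0211 with median centring, and, leaving out 1 mouse, -0.353 (CpG1826 mouse 50) to 0.379, below 0 also for PBS mice 592 (-0.071) and 661 (-0.109). In the same way Cxcl9 with Cxcr3 ran from -0.0745 (PBS mouse 661) to 0.576, and Cxcl9 with Dpp4 from -0.223 (CpG1826 mouse 50; -0.0389 for PBS mouse 661) to 0.259. Cxcl11 with Dpp4 had its lowest value, -0.586, without CpG1826 mouse 50. The differences of Cxcl9 and of Cxcl10 from Dpp4 lost their calls after quantile normalization (0.73 and 0.50). For these results the cause was not tested. The number of arrays and dim probes limit what can be seen.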
